A study of Saccharomyces cerevisiae with 48 samples.

Results

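The comparison set the 2 cultures of budding yeast (Saccharomyces cerevisiae) that overproduce DDK (DDK OP) against the 2 cultures that lack TOF1 (tof1∆), culture by culture and time by time. The members were the 14 DDK OP samples and the 14 tof1∆ samples taken from 1 to 4 hr in meiosis, which make 28 of the 42 samples with listed values (48 samples are labelled). All positions outside chromosome III were used, 4450 of 4568 positions. Chromosome III was left out because the ars∆ strains lack replication origins there.

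DDK is the Cdc7-Dbf4 kinase, which switches on licensed replication origins during S phase, and its activity limits how many origins fire early. Tof1 travels with moving forks as a subunit of the fork protection complex, and it binds DDK there. In premeiotic S phase, as in mitotic S phase, early origins and pericentromeric DNA are copied first, and DNA near the chromosome ends is copied late. DNA that has been copied is present at a higher dose than DNA that has not, so sequencing of total DNA during S phase gives a profile of replication order.

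The 4 cultures were the ARS+ and ars∆ strains of DDK OP and the ARS+ and ars∆ strains of tof1∆. ARS+ strains keep the origins of chromosome III and ars∆ strains have lost some of them. All were synchronous meiotic cultures in 2% potassium acetate at 30 °C, sampled at 1, 1.5, 2, 2.5, 3, 3.5 and 4 hr, and each ars state occurs once in each background. The labels do not say how DDK was overproduced. Each strain was 1 culture, so the ARS+ and ars∆ cultures served as 2 replicates of a background away from chromosome III. An exact permutation of 2 cultures against 2 cannot give a p below 0.33, so single levels and differences are given without a test. The 10-kb windows were tested, with a model that borrows the spread from all windows. With 1 culture a strain, the genotype cannot be told apart from how early or how evenly a culture entered S phase.

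The deposited value at a position is a linear ratio with a mean near 1 in each sample, between 0.549 and 1.47 over the 6 cultures. Every value below is log2 of that ratio divided by the sample's median, so 0 is the middle of the genome at that time, and a positive value means more copies. No read counts were listed, so the depth is unknown. The smallest chromosomes stood apart from the start. Chromosome I had 0.163 and 0.167 at 1 hr in the DDK OP cultures, against 0.059 and 0.107 in the tof1∆ cultures, and chromosome VI had 0.120 and 0.090 against 0.081 and 0.132. The spread, the contrast and the covariance over distance are given with and without both chromosomes. The bins, position counts, centromere and end levels, slopes and matched times below include them.

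The DDK OP profiles were flatter at mid S phase than the tof1∆ profiles, and they opened up sooner. In both DDK OP cultures the SD of values over the genome was wider than in both tof1∆ cultures at 1.5 and 2 hr, and narrower at 2.5 and 3 hr. The highest spread was lower in the DDK OP cultures. It came later in both of them by the SD, and in DDK OP ars∆ alone by the other measures of spread.

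Spread was measured first as the SD over the 4450 positions of a sample. In DDK OP ARS+ the SD was 0.071, 0.074, 0.080, 0.085, 0.086, 0.076 and 0.091 at the 7 times. In DDK OP ars∆ it was 0.070, 0.076, 0.075, 0.072, 0.080, 0.083 and 0.074. Both courses were shallow, with no sharp maximum. In tof1∆ ARS+ it was 0.064, 0.069, 0.070, 0.094, 0.097, 0.078 and 0.073. In tof1∆ ars∆ it was 0.073, 0.067, 0.071, 0.089, 0.099, 0.081 and 0.075. Both tof1∆ cultures stayed near their starting level until 2 hr, jumped at 2.5 hr, were highest at 3 hr and were near their 2 hr level again at 4 hr.

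The highest SD of a culture averaged 0.087 ± 0.006 in DDK OP and 0.098 ± 0.002 in tof1∆ (SD, n = 2 each), a difference of -0.011. The cultures did not overlap: the highest SD was 0.091 and 0.083 in the DDK OP cultures, against 0.097 and 0.099 in the tof1∆ cultures. The interquartile range over positions, which is less open to single extreme positions, gave a larger gap, with 0.112 and 0.107 in DDK OP against 0.133 and 0.133 in tof1∆. Without chromosomes I and VI the highest SD averaged 0.082 in DDK OP and 0.095 in tof1∆. Averaged over all 7 times, the SD was 0.078 ± 0.003 in DDK OP and 0.079 ± 0.001 in tof1∆, a difference within the spread between cultures.

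The SD holds both the replication profile and scatter between single positions. The part shared by positions 10 kb apart, taken as the square root of their covariance, leaves out scatter that does not extend that far. This shared spread in DDK OP ARS+ was 0.029, 0.035, 0.042, 0.057, 0.057, 0.042 and 0.046, and in DDK OP ars∆ it was 0.027, 0.030, 0.036, 0.029, 0.043, 0.055 and 0.038. In tof1∆ ARS+ it was 0.014, 0.014, 0.018, 0.062, 0.068, 0.045 and 0.035, and in tof1∆ ars∆ it was 0.026, 0.025, 0.028, 0.055, 0.066, 0.055 and 0.044. The shared part had therefore begun to grow by 2 hr in both DDK OP cultures, while the tof1∆ cultures gained most of theirs in a single step to 2.5 hr. Its highest value averaged 0.056 ± 0.002 in DDK OP and 0.067 ± 0.001 in tof1∆ (SD, n = 2 each). Without chromosomes I and VI these were 0.048 and 0.063.

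The time of the highest SD was 4 hr in DDK OP ARS+ and 3.5 hr in DDK OP ars∆, against 3 hr in both tof1∆ cultures. The 4 hr value of DDK OP ARS+ was mostly not shared between positions: the shared part made up 25.9% of the variance there, against 44.0% in the same culture at 3 hr. By the shared spread, by the interquartile range and by the SD of 10-kb windows the highest time was 3 hr in DDK OP ARS+, 3.5 hr in DDK OP ars∆ and 3 hr in both tof1∆ cultures. The difference in time, 0.75 hr by the SD and 0.25 hr by the other measures, rested on 1 culture in the second case.

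**Figure D1:**
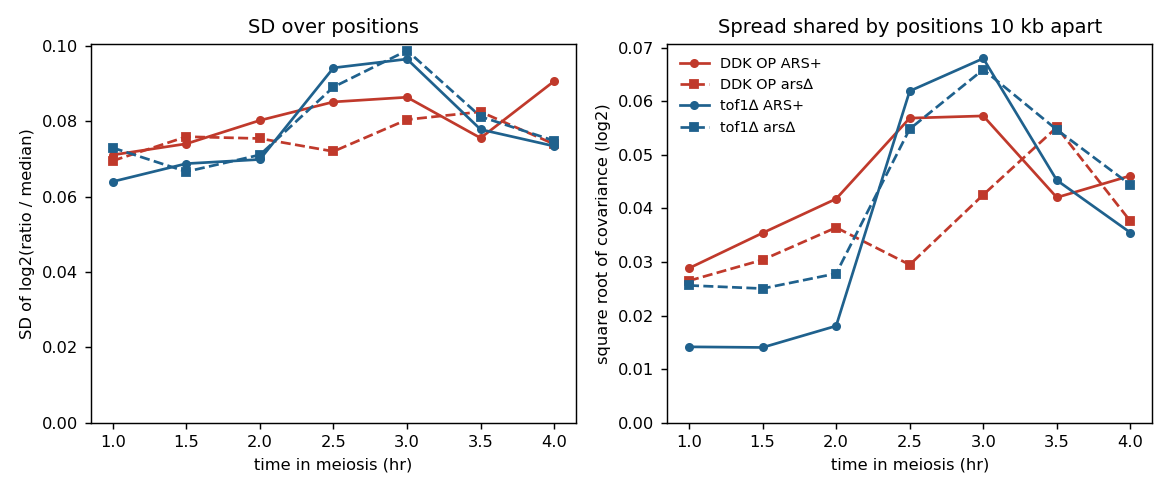
SD over positions of log2(ratio / sample median) on the left and the spread shared by positions 10 kb apart on the right (both log2), by time in meiosis, with 1 point per sample. DDK OP cultures are red and tof1∆ cultures blue; ARS+ is a solid line with circles and ars∆ a dashed line with squares. The tof1∆ curves rise steeply to 2.5 and 3 hr, and the DDK OP curves start to rise sooner and stay lower at 3 hr.

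Early and late regions were taken from the wild-type cultures, which do not enter the comparison. The 1113 positions with the highest mean wild-type value over 1 to 4 hr are called early and the 1113 lowest are called late. The contrast is the mean of the early positions minus the mean of the late positions in a sample.

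In both DDK OP cultures the contrast had begun to open by 2 hr, and in both tof1∆ cultures most of the gain fell between 2 and 2.5 hr. In DDK OP ARS+ the rise was also fast, from 26.1% of the highest contrast at 1.5 hr to 95.9% at 2.5 hr. It was 0.025, 0.025, 0.060, 0.093, 0.097, 0.069 and 0.057 in DDK OP ARS+ at the 7 times, and 0.013, 0.038, 0.055, 0.042, 0.073, 0.092 and 0.061 in DDK OP ars∆. The DDK OP ars∆ sample at 2.5 hr stands apart, since its contrast lies below those of its neighbours at 2 and 3 hr. The contrast was 0.013, 0.015, 0.029, 0.101, 0.118, 0.077 and 0.048 in tof1∆ ARS+, and 0.014, 0.012, 0.031, 0.089, 0.113, 0.091 and 0.068 in tof1∆ ars∆.

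At 2 hr the contrast averaged 0.058 ± 0.003 in DDK OP and 0.030 ± 0.001 in tof1∆ (SD, n = 2 each), and the cultures did not overlap. At 3 hr the order was turned round: it averaged 0.085 ± 0.017 in DDK OP and 0.115 ± 0.003 in tof1∆, again without overlap. The average over all times was 0.057 ± 0.005 in DDK OP and 0.059 ± 0.002 in tof1∆, and here the pairs differed in sign. Without chromosomes I and VI the pairs agreed in sign, with differences of -0.0098 (ARS+) and -0.0071 (ars∆). The courses over time thus lay farther apart than the averages did.

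Set against a culture's own highest contrast, the 2 hr sample had reached 61.8% and 60.0% in the DDK OP cultures, against 24.5% and 27.1% in the tof1∆ cultures. The largest gain between neighbouring samples was 0.035 in DDK OP ARS+ (1.5 to 2 hr) and 0.030 in DDK OP ars∆ (2.5 to 3 hr). It was 0.072 in tof1∆ ARS+ and 0.059 in tof1∆ ars∆, both between 2 and 2.5 hr. A single step between neighbouring samples therefore held 35.7% and 32.9% of the highest contrast in the DDK OP cultures, against 61.1% and 51.8% in the tof1∆ cultures. Without chromosomes I and VI these shares were 43.4% and 42.3% against 66.0% and 61.6%. The largest step of DDK OP ARS+ then lay between 2 and 2.5 hr, as in both tof1∆ cultures.

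Of the positions on chromosomes I and VI, 94.5% and 94.0% belong to the early set, and their offset at 1 hr enters the contrast. Without them the contrast at 1 hr was 0.0046 and -0.0051 in the DDK OP cultures and 0.0023 and -0.0059 in the tof1∆ cultures, near 0 in all 4. At 2 hr it was 0.039 and 0.038 in DDK OP against 0.019 and 0.014 in tof1∆, and at 3 hr 0.078 and 0.059 against 0.111 and 0.098. Both orders were kept. The share of the highest contrast reached at 2 hr was then 50.6% and 49.1% in DDK OP, against 17.5% and 14.1% in tof1∆.

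The time at which the contrast passed 50% of its highest value, read by a straight line between samples, was 1.83 and 1.74 hr in DDK OP against 2.21 and 2.22 hr in tof1∆. This measure was less firm than the level at 2 hr. Without chromosomes I and VI it was 1.99 and 2.70 hr in DDK OP against 2.25 and 2.29 hr in tof1∆, since DDK OP ars∆ then fell just short at 2 hr and the sample at 2.5 hr was low.

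**Figure D2:**
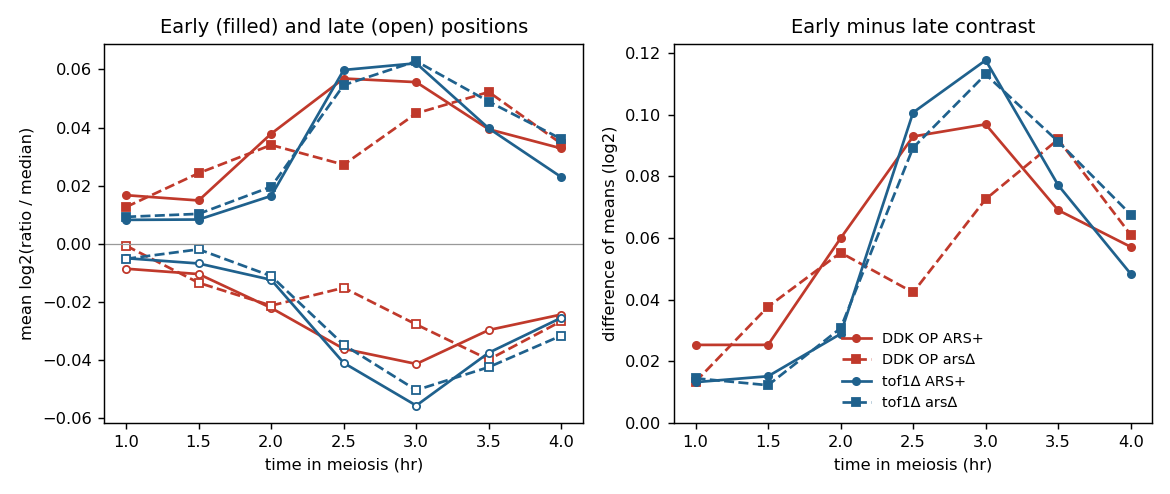
Mean log2(ratio / sample median) of the early (filled) and the late (open) positions on the left, and the early minus late contrast (log2) on the right, by time in meiosis. DDK OP cultures are red and tof1∆ cultures blue; ARS+ solid with circles, ars∆ dashed with squares; 1 point per sample. Both DDK OP cultures lie above both tof1∆ cultures at 2 hr and below them at 3 hr.

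Both ends of the programme, early and late, differed between the backgrounds. Each level is relative to the median of its sample, so the early and late levels are not independent. These levels include chromosomes I and VI. At 1 hr the early positions already stood at 0.017 and 0.013 in the DDK OP cultures, against 0.0083 and 0.0093 in the tof1∆ cultures. At 2 hr the early positions stood at 0.038 and 0.034 in the DDK OP cultures, against 0.017 and 0.020 in the tof1∆ cultures. The late positions stood at -0.022 and -0.021 against -0.012 and -0.011. At 2 hr the DDK OP cultures were thus farther from the middle of the genome at both ends. At 3 hr the early positions had 0.056 and 0.045 in DDK OP against 0.062 and 0.063 in tof1∆, and the late positions had -0.041 and -0.028 against -0.056 and -0.050. At that time the tof1∆ cultures were farther out at both ends.

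Bins of 10% of the positions, ordered by the wild-type value, placed these differences more finely. At 2.5 and at 3 hr each of the 5 later bins was higher in DDK OP than in tof1∆ in both pairs. Of the 5 earlier bins 1 was higher in the ARS+ pair, the earliest, and 0 in the ars∆ pair. The latest bin differed by 0.023 in the ARS+ pair and by 0.042 in the ars∆ pair at 3 hr. The earliest bin differed by 0.012 and -0.015, so the pairs did not share a direction there. At 1 hr it already differed by 0.026 and 0.0047. At 2 hr the earliest bin was higher in DDK OP by 0.042 and 0.024, and the latest was lower, by -0.013 and -0.0054. Chromosomes I and VI, with their offset, fall in large part in the earlier bins.

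**Figure D3:**
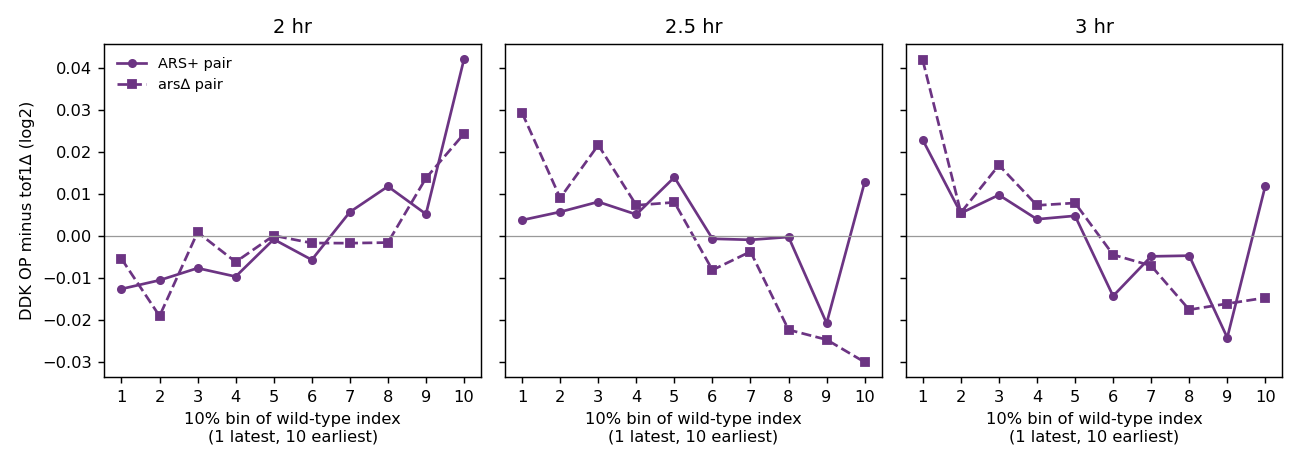
DDK OP minus tof1∆ (mean log2 difference) in each bin of 10% of the positions at 2, 2.5 and 3 hr, with bins ordered from the latest (1) to the earliest (10) in wild type. Solid lines with circles are the ARS+ pair and dashed lines with squares the ars∆ pair. At 3 hr the 5 later bins lie above 0 in both pairs, and the latest reach 0.023 and 0.042.

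Single positions gave the same order in their counts. At 1 hr both DDK OP cultures lay above both tof1∆ cultures at 17.2% of all positions and below at 16.4%, and among early positions at 18.0% and 15.4%. At 2 hr both DDK OP cultures lay above both tof1∆ cultures at 796 of all 4450 positions (17.9%) and below both at 793 (17.8%). Among the early positions the counts were 285 above and 157 below (25.6% and 14.1% of 1113), and among the late positions 155 above and 229 below (13.9% and 20.6%). Early positions thus leaned to DDK OP and late positions to tof1∆. At 2.5 and 3 hr the lean was the other way. At 2.5 hr both DDK OP cultures were above at 12.6% of early positions and below at 23.5%, where all positions gave 18.0% above and 17.5% below. At 3 hr both DDK OP cultures were above at 145 early positions (13%) and below at 267 (24.0%), and above at 294 late positions (26.4%) and below at 13.6%, where all positions gave 18.9% above and 18.4% below. At 3.5 and 4 hr the shares among early and late positions stayed between 15.9% and 19.05%, close to those of all positions, 17.1% above and 17.5% below at 3.5 hr and 16.6% above and 17.6% below at 4 hr. Neighbouring positions share signal, so these counts describe the profiles and are not independent.

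The turn between 2 and 3 hr was spread over the chromosomes. The contrast could be computed within 13 chromosomes with at least 5 early and 5 late positions. At 2 hr it was higher in DDK OP in both pairs on 11 of the 13 and lower in both pairs on 0. At 2.5 hr it was lower in both pairs on 9 of 13, and at 3 hr on 12 of 13, with 0 higher in both at either time. At 3.5 hr it was higher in both on 2 and lower in both on 5. On chromosome X, for instance, the contrast at 2 hr was 0.061 and 0.047 in DDK OP against 0.016 and 0.021 in tof1∆, and at 3 hr it was 0.093 and 0.078 against 0.135 and 0.105. Chromosome VIII had a small contrast in all 4 cultures at 3 hr, 0.039 and 0.0067 in DDK OP against 0.028 and 0.017 in tof1∆. Chromosomes X and VIII are given as a large and a small case, and were picked after their values were seen.

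The profiles differed locally too. At 2.5 hr the peaks of the wild-type profile stood higher in the tof1∆ cultures than in the DDK OP cultures, and their width was not compared. Peaks were located in the smoothed wild-type profile at 3 and 3.5 hr, as positions from which the profile dropped by at least 0.05 on both sides within 50 kb, which gave 110 peaks. The height of a peak in a culture is the level at its centre minus the level 30 to 40 kb away.

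At 2.5 hr the mean height over the 110 peaks was 0.034 and 0.012 in the DDK OP cultures, against 0.078 and 0.047 in the tof1∆ cultures. The averages were 0.023 ± 0.015 in DDK OP and 0.062 ± 0.022 in tof1∆ (SD, n = 2 each), without overlap. The height was lower in DDK OP at 81 of 110 peaks in the ARS+ pair and at 73 of 110 in the ars∆ pair. Over the 19 peaks with a drop of at least 0.10 it was lower at 17 and at 14. At 1 hr it was already lower at 62 of 110 peaks in the ARS+ pair and at 50 in the ars∆ pair. Over the 19 steeper peaks the counts at 1 hr were 14 and 9.

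The highest mean height that a culture reached at any time was 0.034 in DDK OP ARS+ (2.5 hr) and 0.020 in DDK OP ars∆ (3 hr). It was 0.078 in tof1∆ ARS+ and 0.047 in tof1∆ ars∆, both at 2.5 hr. No DDK OP sample reached the height of either tof1∆ culture at 2.5 hr. At 2 hr the heights were 0.032 and 0.0077 in DDK OP and 0.026 and 0.016 in tof1∆, with overlap, although the broad contrast between early and late regions was then higher in both DDK OP cultures. At 3 hr they averaged 0.022 ± 0.003 in DDK OP and 0.043 ± 0.011 in tof1∆, and at 3.5 hr 0.017 ± 0.001 and 0.021 ± 0.008. The backgrounds were thus apart in mean height at 2.5 and 3 hr and overlapped at the other times. Peak by peak, the height at 3 hr was lower in DDK OP at 70 of 110 peaks in the ARS+ pair. In the ars∆ pair it was lower at 58 and higher at 52, nearly even.

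A measure that uses no peak positions also set the backgrounds apart at 2.5 hr at 40 kb. At 20 kb it did so only with chromosomes I and VI included. Of the covariance between positions 10 kb apart, 59.0% and 77.9% was left at 40 kb in the DDK OP cultures, against 9.3% and 32.5% in the tof1∆ cultures. Without chromosomes I and VI these were 40.1% and 58.3% against -1.4% and 12.7%. At 40 kb both DDK OP cultures thus kept more of it than both tof1∆ cultures. At 20 kb, without chromosomes I and VI, they did not: 70.5% and 29.5% was left in DDK OP against 52.9% and 55.4% in tof1∆. With both chromosomes, the correlation fell from 0.446 at 10 kb to 0.360 at 20 kb in DDK OP ARS+. In DDK OP ars∆ it fell from 0.168 to 0.126. In tof1∆ it fell from 0.432 to 0.244 (ARS+) and from 0.379 to 0.247 (ars∆), a larger share in both cultures. At 3 hr 73.0% and 64.8% was left at 40 kb in DDK OP against 43.7% and 62.5% in tof1∆, without overlap. Without chromosomes I and VI the cultures overlapped at 3 hr, with 62.8% and 50.6% against 39.4% and 55.2%. The share of DDK OP ars∆ at 2.5 hr, lower at 20 kb than at 40 kb, rests on a low shared spread and is the least certain of these.

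**Figure D4:**
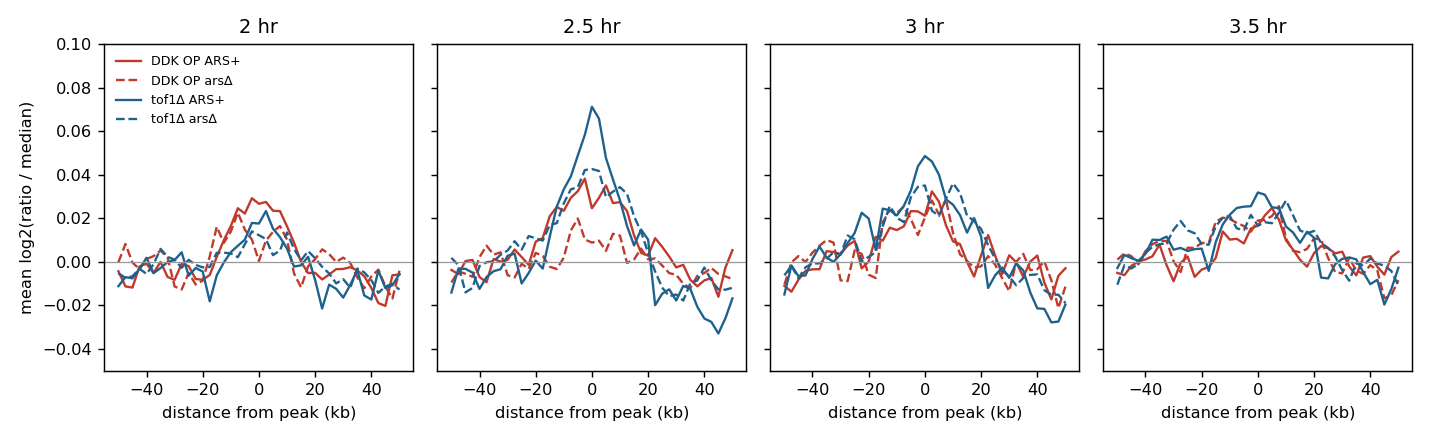
Mean log2(ratio / sample median) around the 110 wild-type peaks against distance from the peak in kb, at 2, 2.5, 3 and 3.5 hr. DDK OP cultures are red and tof1∆ cultures blue; ARS+ solid, ars∆ dashed. At 2.5 hr the centres stand highest in tof1∆ ARS+, where the mean height is 0.078, and lowest in DDK OP ars∆, where it is 0.012.

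Pericentromeric DNA, which is early in yeast, followed the course of the early positions. The 293 positions within 25 kb of a centromere were set against all other positions of the same sample. Their excess was 0.024 and 0.048 at 1.5 hr in the DDK OP cultures against 0.0068 and 0.011 in the tof1∆ cultures, and at 2 hr 0.067 and 0.056 against 0.033 and 0.036. At both times both DDK OP cultures were higher. At 2.5 hr the excess was 0.096 and 0.045 in DDK OP against 0.109 and 0.107 in tof1∆, and at 3 hr 0.090 and 0.090 against 0.116 and 0.121. At 3.5 hr the cultures overlapped, with 0.064 and 0.092 against 0.080 and 0.094. Centromeric regions had thus gained sooner in DDK OP and reached a lower level at 3 hr.

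The 347 positions in the outer 30 kb of the chromosomes, where late DNA is common, did not overlap at 1, 3 and 3.5 hr. At 1 hr their level relative to the rest was 0.017 and 0.024 in DDK OP against 0.0033 and 0.017 in tof1∆, where the nearest cultures were almost equal. The difference in the ARS+ pair was 0.014 at 1 hr and 0.017 at 3 hr, and in the ars∆ pair 0.0068 and 0.037. At 3 hr the level was -0.025 and 0.0092 in DDK OP against -0.041 and -0.028 in tof1∆. At 3.5 hr it was -0.017 and 0.0039 against -0.046 and -0.035. Chromosome ends were less depleted in both DDK OP cultures than in either tof1∆ culture at these times. The DDK OP cultures differed strongly from each other at the ends, with -0.056 in the ARS+ culture and 0.011 in the ars∆ culture at 1.5 hr. At 4 hr the groups overlapped, with -0.065 and -0.018 in DDK OP and -0.062 and -0.046 in tof1∆.

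**Figure D5:**
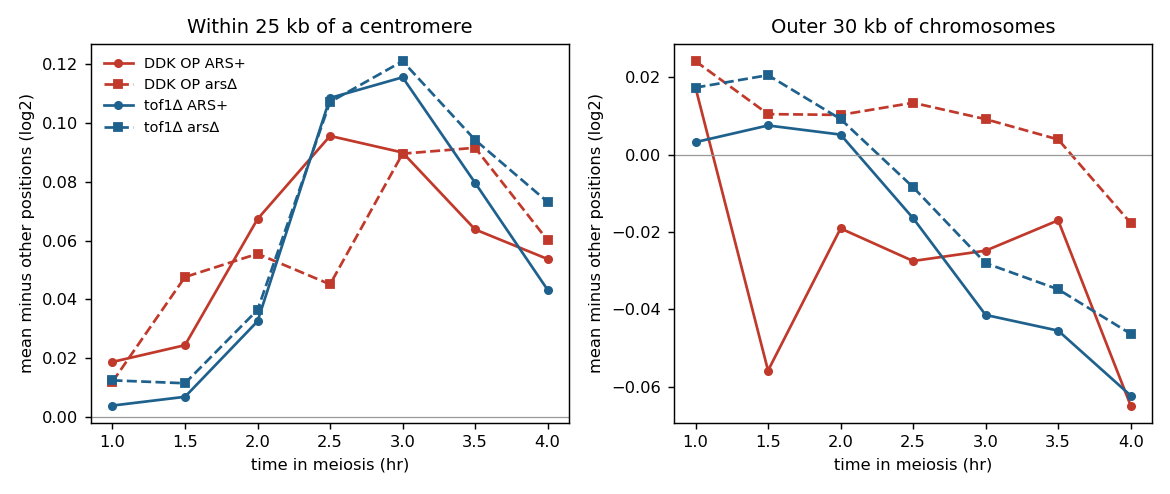
Mean log2(ratio / sample median) of positions within 25 kb of a centromere (left) and in the outer 30 kb of chromosomes (right), each minus the mean of all other positions, by time in meiosis. DDK OP cultures are red and tof1∆ cultures blue; ARS+ solid with circles, ars∆ dashed with squares. At 3 hr the centromeric excess is 0.090 in both DDK OP cultures, against 0.116 and 0.121 in the tof1∆ cultures.

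Named origins gave too few positions for more than a description, at 8 positions within 10 kb of each, at approximate places. ARS416, better known as ARS1, is an early origin beside the centromere of chromosome IV. Its region had 0.110 and -0.0034 at 2.5 hr in DDK OP against 0.157 and 0.175 in tof1∆, and 0.104 and 0.049 at 3 hr against 0.160 and 0.175. ARS607, among the earliest origins of mitotic cells, had 0.207 and 0.206 at 2 hr in DDK OP against 0.113 and 0.156 in tof1∆, and 0.15 and 0.181 at 3 hr against 0.185 and 0.215. Both DDK OP cultures were thus below both tof1∆ cultures at 3 hr at these 2 origins, and above them at ARS607 at 2 hr. At 1 hr ARS607 already had 0.053 and 0.113 in DDK OP against 0.103 and 0.124 in tof1∆. The 1 hr values were also subtracted from the mean over 2 to 4 hr. ARS607 then had 0.102 and 0.050 in DDK OP against 0.039 and 0.044 in tof1∆, higher in both DDK OP cultures. ARS416 then had 0.036 and 0.052 in DDK OP against 0.110 and 0.129 in tof1∆, lower in both. Over all times the means of ARS607 overlapped, with 0.130 and 0.153 in DDK OP and 0.134 and 0.145 in tof1∆. For ARS606, also early, the cultures overlapped at each of the 7 times, with means over time of 0.198 and 0.121 in DDK OP and 0.123 and 0.190 in tof1∆. Of the late origins, ARS603 overlapped at each time as well, with means of 0.099 and 0.059 against 0.042 and 0.132. ARS522 had -0.043 and 0.0065 at 2.5 hr in DDK OP against -0.055 and -0.044 in tof1∆, and -0.045 and -0.020 at 3.5 hr against -0.094 and -0.065. Both DDK OP cultures were thus higher at ARS522 at these times, lower at 1.5 hr, and overlapped with tof1∆ at 1, 2, 3 and 4 hr. ARS606, ARS607 and ARS603 lie on chromosome VI, whose offset at 1 hr is part of these levels.

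By whole chromosomes the largest mean difference lay on chromosome I and the lowest on chromosome XIV. Chromosome I had a mean over 1 to 4 hr of 0.158 and 0.15 in DDK OP against 0.038 and 0.092 in tof1∆, a difference of 0.089. The difference was 0.082 at 1 hr already, and after subtraction of each culture's 1 hr values it was 0.017. At 4 hr chromosome I had 0.162 and 0.111 in DDK OP against -0.054 and 0.039 in tof1∆. Chromosome XIV had -0.021 and -0.018 in DDK OP against -0.0083 and -0.012 in tof1∆, a difference of -0.0094, which did not rest on 1 hr (-0.0003) and was -0.0098 after subtraction. Of the 15 chromosomes, 3 were higher and 4 lower in DDK OP in both pairs.

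The profiles of the 2 backgrounds were alike in part. Over the 1143 windows of 10 kb, values at 3 hr correlated at 0.61 in the ARS+ pair and 0.50 in the ars∆ pair. For the means over 1 to 4 hr, the least squares slope of DDK OP on tof1∆ was 0.47 and 0.41. Scatter in the tof1∆ values lowers such a slope, and the major axis slope, which treats both sides alike, was 1.19 and 0.94. Windows are not replicates, and these are descriptions. Each DDK OP sample was also matched with the 7 times of the tof1∆ culture of its ars state. DDK OP ARS+ at 2 hr was most like tof1∆ ARS+ at 2.5 hr (r = 0.47), and at 2.5 hr most like tof1∆ at 3 hr (r = 0.60). The latter match was nearly tied with tof1∆ ARS+ at 2.5 hr (r = 0.59). DDK OP ars∆ at 1.5 hr was most like tof1∆ ars∆ at 2.5 hr (r = 0.33), and at 2 hr most like 3 hr (r = 0.39). The tof1∆ samples at 2.5 and 3 hr were also those with the widest spread, and its part in this match was not tested. Shifts occurred within a background too. DDK OP ARS+ at 2 and 2.5 hr was most like DDK OP ars∆ at 3 and 3.5 hr (r = 0.42 and 0.58). At 2 hr tof1∆ ARS+ was most like tof1∆ ars∆ at 2.5 hr, nearly tied with 2 hr (r = 0.28 and 0.27). At 1, 1.5, 2.5, 3 and 3.5 hr it was most like tof1∆ ars∆ at the same time. A shift to a later time is thus not particular to the comparison of the backgrounds. At 3 hr DDK OP ARS+ was most like tof1∆ ARS+ at 3 hr (r = 0.61). DDK OP ars∆ at 3 hr was most like tof1∆ ars∆ at 2.5 hr, tied with 3 hr to 2 digits (r = 0.50 for each). At 3.5 hr both DDK OP cultures were most like tof1∆ at 3 hr (r = 0.49 and 0.54, against 0.38 and 0.53 at 3.5 hr).

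Few single windows differed beyond the spread between cultures when all times were averaged. A limma fit over all 6 cultures (4 compared and 2 of wild type), with terms for background and ars state and Benjamini-Hochberg adjustment over 1174 windows, called 5 of the 1143 windows off chromosome III (0.437%). Of these, 3 were higher in DDK OP (0.262%) and 2 lower (0.175%), and 79 windows had an unadjusted p under 0.05. The count was 0 without tof1∆ ars∆, 2 without tof1∆ ARS+ and 9 without DDK OP ARS+. Positions are those of the sacCer2 build, and no gene names are given for them.

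The window at chrIV:1090001-1100000 had 0.072 and 0.163 in the DDK OP cultures against -0.040 and -0.101 in the tof1∆ cultures. The difference was 0.19 (SE 0.038, limma adjusted p = 0.00829), and it was 0.20 after subtraction of the 1 hr values, where its limma adjusted p was 0.159. It was 0.054 at 1 hr and 0.31 at 3, 3.5 and 4 hr, so it arose during the time course. Without tof1∆ ars∆ it was 0.10 (limma adjusted p = 0.668), and without DDK OP ars∆ it was 0.16 (limma adjusted p = 0.12). The wild-type cultures had -0.227 and -0.106 there. This window was high in both DDK OP cultures and low in both tof1∆ cultures.

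The other 4 calls were of another kind, since they were present in large part at 1 hr. The window at chrIV:10001-20000, with 2 positions near the left end, had 0.0099 and 0.013 in DDK OP against -0.170 and -0.179 in tof1∆ (difference 0.19, limma adjusted p = 0.00829). Its difference was 0.27 at 1 hr and turned to -0.082 after subtraction. The window at chrVII:700001-710000 had 0.169 and 0.109 in DDK OP against 0.013 and -0.049 in tof1∆ (difference 0.16, limma adjusted p = 0.0166), with 0.13 at 1 hr and 0.030 after subtraction. The window at chrVII:810001-820000, which holds 1 position, had -0.043 and -0.028 in DDK OP against 0.153 and 0.175 in tof1∆ (difference -0.20, limma adjusted p = 0.00283), with -0.19 at 1 hr. Its difference was not steady over time, with -0.34 at 1.5 hr, 0.041 at 3 hr and -0.34 at 3.5 hr. The window at chrXIII:180001-190000 had -0.026 and -0.081 in DDK OP against 0.104 and 0.088 in tof1∆ (difference -0.15, limma adjusted p = 0.0244), with -0.13 at 1 hr. A culture's values at 1 hr recur in its later samples, so a mean over times carries them. With the 1 hr values subtracted, 0 windows (0.00%) passed limma's threshold and 66 had an unadjusted p under 0.05. Fitted alone, the 2.5 hr values gave 6 calls (0.525%), with 3 higher and 3 lower in DDK OP.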

How the data were processed

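Total DNA from meiotic cultures was sequenced, and the authors deposited 1 table per strain of linear ratios at positions 2.5 kb apart. The submitters' processing notes name BWA and the sacCer2 build. The version of BWA, the window behind a value and what the ratio was divided by are not given in the sources used here. The tables hold 1 to 4 hr, and the 0 hr samples were not analysed here. All value columns were mapped to samples by their labels (0 left unused).

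Each ratio was divided by its sample's median and log2 was taken. Positions were averaged in 10-kb windows, and the mean over 1 to 4 hr of a culture was fitted by lmFit and eBayes of limma 3.58.1 (in R 4.3.3, with 2 residual and 29.8 prior degrees of freedom) over all 6 cultures, threshold 0.05 after Benjamini-Hochberg adjustment. The script was tested on simulated data. ARS+ and ars∆ cultures of a background were matched with those of the other. Windows named in the text are all those called, the windows of 5 origins, and the chromosomes with the highest and lowest mean difference. Centromere and origin places are rounded textbook values.

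The members, position sets and lists were chosen with earlier results of these data known. The peaks, the values at single times and the exclusion of chromosomes I and VI were added after the time courses had been seen, and both peak limits were tried. Alternatives covered the measure of spread, the early and late sets, window size, the model's terms and each culture left out.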

Additional observations from a re-analysis of the deposited data

Results flagged for a closer look

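In 6 measures the ARS+ pair and the ars∆ pair differed in opposite directions (DDK OP minus tof1∆, log2), and these oppositions were not tested. The early minus late contrast averaged over 1 to 4 hr differed by 0.0036 in the ARS+ pair and by -0.0064 in the ars∆ pair. At single times it differed by 0.012 and -0.0011 at 1 hr, by -0.0081 and 0.00071 at 3.5 hr, and by 0.0088 and -0.0066 at 4 hr. At 1.5, 2, 2.5 and 3 hr both pairs differed in the same direction. Without chromosomes I and VI the pairs agreed in direction in all 4 of these contrasts. The mean contrast then differed by -0.0098 in the ARS+ pair and by -0.0071 in the ars∆ pair. At 1 hr the differences were 0.0023 and 0.00076, at 3.5 hr -0.025 and -0.0039, and at 4 hr -0.017 and -0.0085. The excess of positions within 25 kb of a centromere, averaged over 1 to 4 hr, differed by 0.0033 in the ARS+ pair and by -0.0078 in the ars∆ pair. With the 1 hr values subtracted from the mean over 2 to 4 hr, both pairs were lower in DDK OP, by -0.017 and -0.018. The level of the outer 30 kb of chromosomes, averaged over 1 to 4 hr, differed by -0.0060 in the ARS+ pair and by 0.018 in the ars∆ pair. For that last measure the DDK OP cultures, with -0.027 and 0.0077, were farther apart than the tof1∆ cultures, with -0.021 and -0.010. After the same subtraction the pairs still differed in opposite directions at the ends, by -0.013 and 0.019.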

How the results depend on the processing

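All differences are DDK OP minus tof1∆. The highest SD differed by -0.011, by -0.023 as an interquartile range, and by -0.015 to -0.0070 with each culture left out (lowest in size without DDK OP ars∆). Its time differed by 0.75 hr, and by 0.25 hr by interquartile range, shared spread or contrast (0.5 to 1 hr with a culture left out). The mean contrast, -0.0014, became 0.0071 for the earliest and latest 10% of positions, 0.0030 with sets chosen in wild-type ARS+ alone, -0.012 with 1 hr subtracted and -0.0085 without chromosomes I and VI. The contrast at 2 hr, 0.028, kept its sign in all settings: 0.042 for the earliest and latest 10%, 0.016 for the earlier and later 50% of positions, 0.022 with sets from wild-type ars∆ alone, 0.038 with sets chosen after subtraction of 1 hr, 0.022 with 1 hr subtracted and 0.022 without chromosomes I and VI. The contrast at 3 hr differed by -0.031, and by -0.019 without DDK OP ars∆. The difference in percent reached at 2 hr, 35.1, was 38.9 and 40.4 with sets from wild-type ARS+ alone and after subtraction. The peak height at 2.5 hr differed by -0.039, and by -0.075 for the 19 steeper peaks and -0.024 without tof1∆ ARS+. The slope, 0.44 on average, was 1.07 as a major axis slope and 0.30 over single positions.

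Windows called by limma numbered 5, against 1 with 5-kb windows, 6 with 20-kb windows, 7 with a trend in eBayes, 3 among full windows, 2 with the 4 cultures alone, 1 without the ars term, 0 with 1 hr subtracted, 1 over 2 to 3.5 hr and 1 with samples scaled to equal SD. The fit of 1.5 hr alone called 1, that of 2 hr alone 1, that of 2.5 hr alone 6, and those of 1, 3, 3.5 and 4 hr alone 0 each (52, 57, 60 and 67 at an unadjusted p under 0.05). With a culture left out the count ran from 0 (without tof1∆ ars∆, 73 unadjusted) over 2 (without tof1∆ ARS+) and 4 (without DDK OP ars∆) to 9 (without DDK OP ARS+). The differences themselves moved by under 1.5 times at 4 of the 5 windows, for instance 0.14 to 0.17 at chrVII:700001-710000, and most at chrIV:1090001-1100000, 0.10 to 0.27. There the lone culture is assumed to vary like the others. With 1 hr subtracted, the differences at chrIV:10001-20000 and chrVII:810001-820000 turned to -0.082 and 0.018. Over the 5 named windows, 16 alternative values kept their call, 34 lost it and 2 reversed. The cause was not tested.

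The ars state, which matches the cultures, is a term of the fit. Depth is unknown.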
